A study of Mus musculus with 2 samples.

Results

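Claudins, cadherins, desmosomal proteins and connexins are the building blocks of the junctions that hold epithelial cells together, seal the space between them and connect their cytoplasms. Their transcripts were examined in mouse lung cells sorted as SPC/GFP+ and EpCAM+, in 1 air-exposed sample and 1 sample from smoke-exposed mice, each exposed for 3 months. SPC usually abbreviates surfactant protein C, the product of alveolar type 2 cells, GFP is a green fluorescent reporter and EpCAM is a surface protein of epithelium. The members are all genes of the array whose symbol starts as a numbered claudin (Cldn), tight junction protein (Tjp), cadherin (Cdh), desmoglein (Dsg), desmocollin (Dsc), plakophilin (Pkp) or connexin (Gja, Gjb, Gjc, Gjd), together with Ocln, F11r, Dsp, Jup and Epcam. Cldn5 and Cdh5, which mark endothelium, were left out. The rule gave 88 of 19505 genes, each with 1 probe. Strain, sex, age, number and pooling of the mice, the kind and dose of smoke and the element that drives GFP do not appear among the labels used here.

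Each condition had 1 array, so there are no replicates to check a difference against, no SD and no p-value, and every value compares these 2 samples, not the conditions. Signals are on the deposited scale, taken as log2, and a difference is smoke minus air on that scale. A gene counted as higher or lower here differed at least 2-fold (a log2 difference of 1) and had a brighter array that reached 4.57, the median of all probe values, called the level filter here. Signals of different genes depend on their probes and were not ranked against each other. Beside each difference stands, where useful, the robust SD of the differences among the 200 genes nearest in mean signal, which holds both measurement error and real change. Sftpc, the gene of surfactant protein C, was at the upper limit of the scale, 19.93, on both arrays, where no difference can be seen. Scgb1a1, a marker of club cells, was at the same limit on both arrays, so such values do not show how pure the sort was. The 4 type 2 markers below the limit (Sftpd, Abca3, Napsa, Etv5) had signals from 18.30 to 19.91 and differed by 0 to 0.15. Epcam, the gene of the second sorting marker and itself a member, was at 11.09 in air and 10.92 in smoke. No member reached the upper limit.

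Tight junctions lie at the top of the lateral membrane and set how leaky an epithelium is. Claudins form their strands, occludin and the adhesion molecule encoded by F11r sit beside them, and the Tjp scaffolds tie them to actin. Below them, adherens junctions join cells through cadherins and catenins. Desmosomes join them through desmogleins and desmocollins, whose plaque of plakoglobin, plakophilins and desmoplakin holds keratin filaments. Connexins form gap junctions, channels through which neighbouring cells exchange ions and small molecules. In the alveolus these junctions keep fluid out of the airspace and spread calcium signals between type 1 and type 2 cells.

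Junction genes of the sorted cells differed between smoke and air in both directions and, with 1 exception, by less than 2-fold above the level filter. Of the 88 members, 28 were above the level filter and 60 were below it on both arrays. Among the 28, only Pkp1 passed 2-fold, on the lower side, and 0 were 2-fold higher; over all 10419 genes above the filter, 6.41% passed 2-fold, 3.94% as higher and 2.48% as lower. At 1.5-fold, 1 member was higher (Cdh24) and 3 were lower (Pkp1, Dsg2, Cdh16), where 14.5% and 9.19% of all genes above the filter were (23.7% together). These shares are close to or below the background, so the counts set the members apart in no direction. The members above the filter had a median log2 difference of -0.055, with 13 higher and 15 lower, beside 0.06 for all genes above the filter, of which 54.3% were higher. Over all 88 members the median was -0.085, with 33 higher, 53 lower and 2 equal, beside -0.02 for all genes. Most of the 88 were dim, and the genes nearest to each member in mean signal had a typical median of -0.0875. The median of all members was thus near that of genes of their own level. Of the 28, 22 were above the filter on both arrays. Cldn15, Dsg2, Gja5, Pkp1 and Pkp3 passed through their air signal alone and Cdh24 through its smoke signal alone, so their direction is partly set by the filter, and the 22 others had a median of 0.035.

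**Figure D1:**
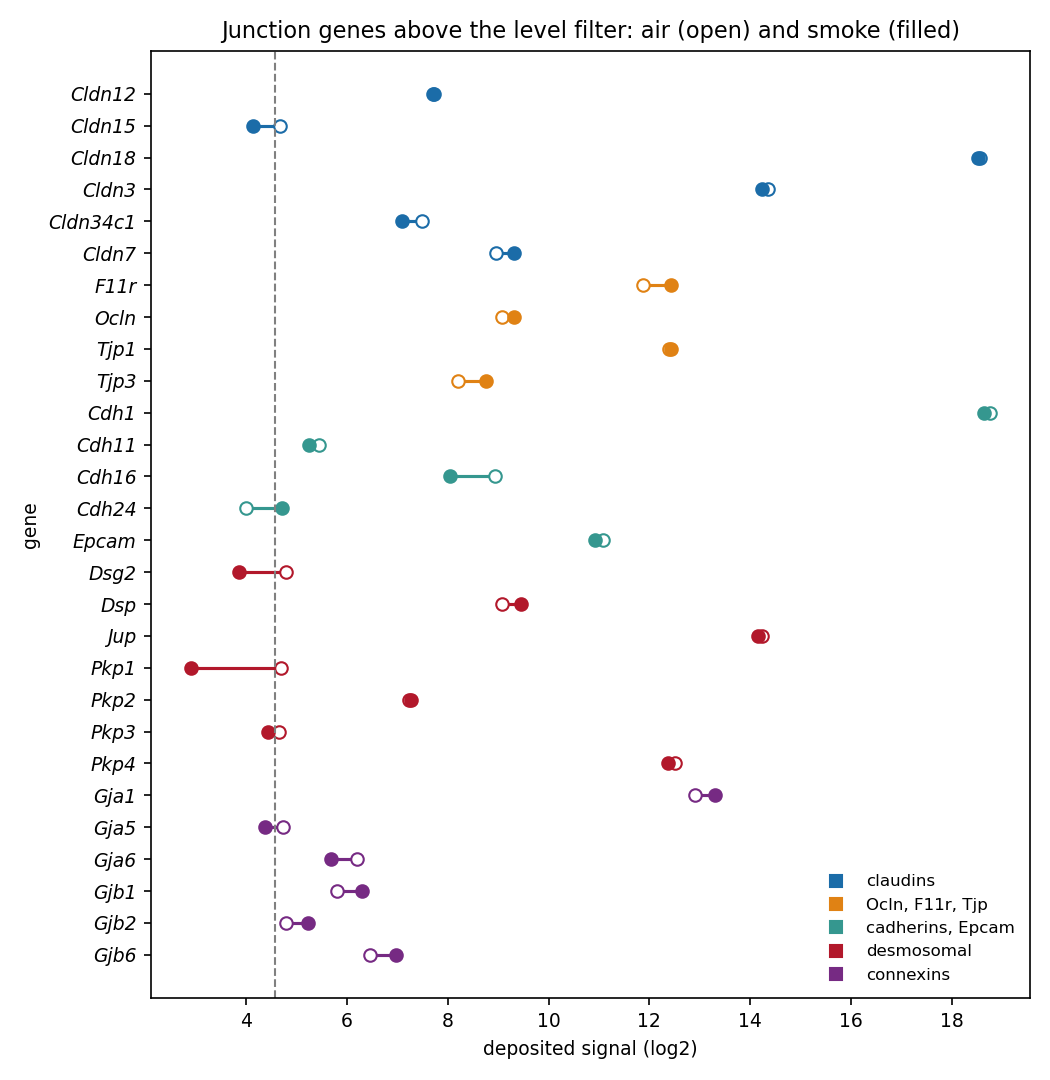
Deposited log2 signal (x axis) of the 28 junction genes above the level filter (y axis), with open circles for the air array, filled circles for the smoke array and a dashed line at the filter of 4.57. The circles of most genes nearly touch, while Pkp1 spans from 4.70 to 2.91 and Dsg2 and Cdh16 are also visibly apart; positions along the axis do not rank genes against each other.

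Among claudins, the genes known from alveolar epithelium had near-equal signals. Cldn18, the claudin typical of lung, with a separate form in stomach, was at 18.55 in air and 18.52 in smoke. Its difference of -0.03 lay well inside the robust SD of 0.24 among genes of like level. Genes at the upper limit of 19.93 were not left out of such spreads, so this value is only a rough guide for signals near that limit. Cldn3, a sealing claudin of type 2 cells, was at 14.36 in air and 14.24 in smoke. Cldn7, which binds Epcam at the basolateral membrane, was at 8.96 in air and 9.31 in smoke, differing by 0.35 with a like-level robust SD of 0.41. Cldn12, a claudin of many epithelia, was at 7.70 and 7.73. These 4 genes thus differed by less than the spread of genes of like level. Cldn34c1, of a rodent claudin family on the X chromosome whose near-identical copies the probes may not separate, was at 7.49 in air and 7.10 in smoke, differing by -0.39. Cldn15, which forms cation pores in gut epithelium, was at 4.68 in air and 4.15 in smoke, below the filter. The 6 claudins above the filter had a median of -0.075 and 0 passed 2-fold.

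The other 25 claudins were below the filter on both arrays, with signals from 2.24 to 4.41 and differences from -1.06 to 0.50. Cldn4, which is raised in injured lung epithelium, was among them at 4.35 in air and 4.41 in smoke. Cldn34b4 had the largest difference, from 4.20 in air to 3.14 in smoke. With an offset of 16 added to the linear signal, which damps differences between dim signals, that difference of -1.06 was -0.47. Cldn1 and Cldn2 were at 3.50 and 3.61 in air and at 3.92 and 3.51 in smoke. Alveolar type 1 markers, a list that holds Cldn18 too, had a median of -0.23. They were lower for 8 of 9 genes, beside 4660 of 10419 genes above the filter. Their summed signal was 19.70 in air and 19.67 in smoke on the log2 scale. Summed signals follow the brightest genes of a list, here Cldn18 and Ager, the latter at 18.41 in air and 18.54 in smoke. Fewer cells of a type and less RNA per cell cannot be told apart in such sorted bulk samples.

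Cldn3 and Cldn4 are direct neighbours in the genome, and of this pair only Cldn3 was above the filter. Their promoter windows, 250 bases up to the transcription start from RefSeq (build GRCm38.p6), are shown for that contrast. The Cldn3 window is chr5:134985964-134986213 on the plus strand and the Cldn4 window is chr5:134946935-134947184 on the minus strand. Capitals mark matches, on either strand, to the GC box GGGCGG and to the Snail-type E-box CAGGTG, a letter pattern bound by repressors of epithelial genes.
Cldn3: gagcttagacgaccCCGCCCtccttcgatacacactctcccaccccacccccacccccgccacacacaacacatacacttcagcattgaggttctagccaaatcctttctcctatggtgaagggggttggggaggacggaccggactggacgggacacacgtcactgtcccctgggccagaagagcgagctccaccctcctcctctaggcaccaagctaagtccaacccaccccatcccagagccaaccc
Cldn4: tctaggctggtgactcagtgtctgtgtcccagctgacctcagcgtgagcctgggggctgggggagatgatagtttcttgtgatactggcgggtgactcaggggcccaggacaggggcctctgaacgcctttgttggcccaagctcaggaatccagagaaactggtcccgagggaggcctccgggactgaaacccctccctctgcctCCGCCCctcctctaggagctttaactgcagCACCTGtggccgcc
The Cldn3 window holds a GC box that begins 236 bases before the start. The Cldn4 window holds a GC box 44 bases and an E-box 14 bases before the start. A match describes letters only and shows no binding.

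Occludin, F11r and the Tjp scaffolds were each higher in smoke, by less than 1.5-fold. Tjp3, a scaffold of epithelial tight junctions, was at 8.20 in air and 8.76 in smoke, differing by 0.56 (like-level robust SD 0.48). F11r, which encodes junctional adhesion molecule A, was at 11.87 in air and 12.42 in smoke, differing by 0.55 (robust SD 0.38). Ocln, the occludin gene, was at 9.08 in air and 9.31 in smoke. Tjp1, the most widely used scaffold of tight junctions, was at 12.38 in air and 12.43 in smoke. These 4 genes had a median of 0.39 and all were above the filter on both arrays. Genes of like level were themselves slightly higher in smoke, and less their median the group stood at 0.28, with Tjp1 then just below 0 at -0.05. Of all genes above the filter, 15.3% were higher than Tjp3 and 15.7% higher than F11r, so neither is an unusual value on these arrays.

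Of the 4 cadherins above the filter, 3 were lower in smoke, by unequal amounts, and 1 was higher. Cdh1, which encodes E-cadherin, the cadherin of epithelial adherens junctions, was at 18.75 in air and 18.63 in smoke. Cdh16, a cadherin best known from kidney epithelium, had signals of 8.93 in air and 8.04 in smoke, a 1.85-fold difference. Its log2 difference of -0.89 was over 2 robust SDs below genes of like level, and 348 of 10419 genes (3.34%) were lower still. Both Cdh16 signals were clear of the filter, and the difference was -0.85 with the offset. Cdh11, a cadherin of mesenchymal cells, was at 5.44 in air and 5.25 in smoke. Fibroblast and smooth muscle markers, which include Cdh11, were lower for 5 of 8 genes, beside 4660 of 10419 genes above the filter. Their median was -0.12, and their summed signal was 8.78 in air and 8.63 in smoke. Cdh24, a classical-type cadherin that binds catenins, had a smoke signal of 4.71 and an air signal of 4.01, under the filter; its difference of 0.70 was 0.39 with the offset.

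Another 18 cadherins were below the filter on both arrays, from 2.11 to 4.46, with differences from -0.55 to 0.64. Cdh8 had 4.42 in air and 4.46 in smoke, and Cdh19 had the largest difference on the higher side, from 2.29 to 2.93. Cdh2, which encodes N-cadherin and is used as a sign of mesenchymal change, was at 2.93 in air and 2.90 in smoke. Cdh3, which encodes P-cadherin of basal cells, was at 3.54 and 3.55. Neither array therefore had a Cdh2 or Cdh3 signal above the median probe. Of the left-out endothelial genes, Cldn5 had 8.71 in air and 7.54 in smoke and Cdh5 at 14.34 and 13.86, respectively. Endothelial markers, of which these are 2, were lower for 9 of 11 genes, beside 4660 of 10419 genes above the filter. Their median was -0.68, and their summed signal was 15.33 in air and 14.68 in smoke. Endothelial markers are thus not absent from the sort.

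Desmosomal genes held the member with the largest difference. Pkp1, a plakophilin of stratified epithelium, had an air signal of 4.70 and a smoke signal of 2.91, a 3.46-fold difference. Its log2 difference of -1.79 was also over 2 robust SDs below genes of like level, and 20 of 10419 genes were lower. That rank is partly set by the filter, which Pkp1 passed through its air signal alone. The air signal was just above the filter of 4.57, and with the offset the difference was -0.84, under 2-fold. Basal cell markers, the lung cells nearest to stratified epithelium, were below the filter on both arrays for 5 of 5 genes, of which Dsg3 is also a member. Ciliated cell markers were lower for 5 of 5 genes, beside 9971 of 19489 genes not at the upper limit. Of these markers, 2 were below the filter on both arrays and Dnah5 passed it through air alone, at 4.62 (3.99 in smoke). Their summed signal, 10.55 in air and 9.21 in smoke, was mostly that of Tppp3, at 10.46 and 9.02. Club cell markers had 1 higher and 2 lower of 3 measurable genes, among them Scgb3a1 at 6.85 in air and 5.02 in smoke. The summed signal of the club list, 20.03 in air and 20.01 in smoke, also holds Scgb1a1. Scgb1a1 was capped at 19.93 in each sample and makes up most of that sum, which therefore cannot show whether club cell markers differed. The part of these cell types in the lower Pkp1 and Dsg2 signals was not tested. Dsg2, the desmoglein of simple epithelium, had signals of 4.79 in air and 3.87 in smoke, a 1.89-fold difference in signals close to the filter. Its log2 difference of -0.92 was -0.51 with the offset. Both genes were thus close to the filter in air and below it in smoke.

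The other desmosomal genes above the filter differed by less. Dsp, which encodes desmoplakin, the link from plaque to keratin, was at 9.08 in air and 9.45 in smoke. Jup, which encodes plakoglobin of both desmosomes and adherens junctions, was at 14.24 and 14.16. Pkp2, the plakophilin of simple epithelium, was at 7.24 and 7.28. Pkp4, a plakophilin-like protein found mostly at adherens junctions, was at 12.50 and 12.36. Pkp3, a plakophilin of most epithelia, was at 4.65 in air and 4.43 in smoke. Pkp2, Pkp3, Pkp4, Jup and Dsp each differed by less than the robust SD of genes of like level. The 7 desmosomal genes above the filter had a median of -0.14, and the 4 that were above it on both arrays had a median of -0.02. The other 8, all desmogleins and desmocollins, were below the filter, from 1.95 to 4.25. Dsc2, the usual partner of Dsg2, had 2.57 in air and 2.53 in smoke, Dsc1 at 4.25 and 4.12, and Dsg3 had the largest difference of the 8, from 2.50 to 1.95. Dsg1a, Dsg1b and Dsg1c are close copies that the probes may not separate.

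**Figure D2:**
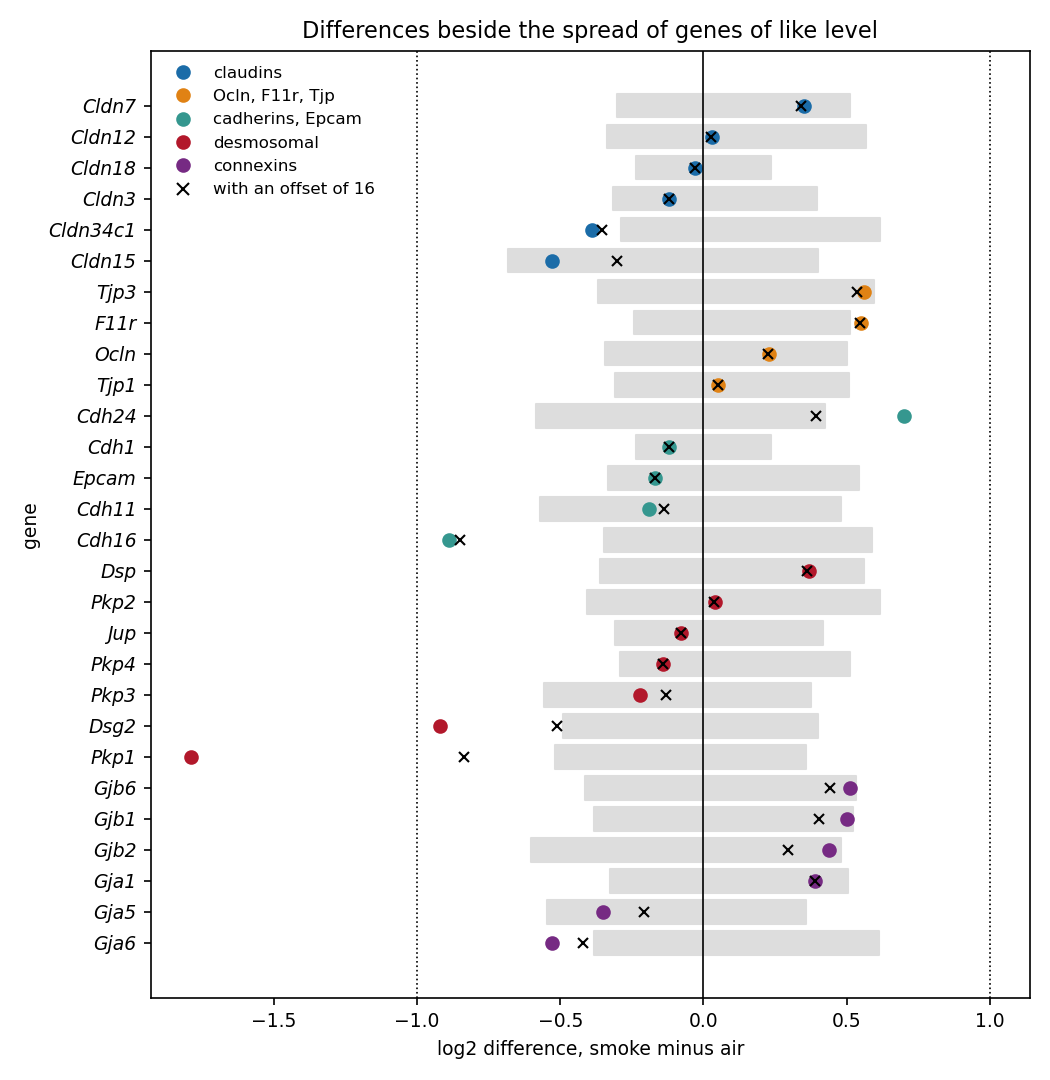
Log2 difference, smoke minus air (x axis), of the 28 junction genes above the level filter (y axis), with coloured circles for the deposited signals, crosses for the same difference with an offset of 16 and grey bars for the median plus and minus 1 robust SD of the 200 genes of like level; dotted lines mark 2-fold. Of these genes, 21 lie within 1 robust SD, Pkp1 lies past the dotted line and its cross, at -0.84, lies inside it.

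Of the 15 connexins, 6 had higher and 9 lower signals in smoke, beside 9971 lower of 19489 genes not at the upper limit. The connexins had a median of -0.13, and 0 passed 2-fold. Of the 6 above the filter, 4 were higher (Gja1, Gjb1, Gjb2, Gjb6) and 2 lower (Gja5, Gja6), each within 1.5-fold. Gja1, the most widespread connexin and one that couples alveolar cells, was at 12.91 in air and 13.30 in smoke. Gjb1, a connexin of liver and other glandular epithelia, was at 5.81 in air and 6.31 in smoke. Gjb2, a connexin of many epithelia and of the inner ear, was at 4.80 in air and 5.24 in smoke. Gjb6, which partners Gjb2 in the inner ear, was at 6.47 in air and 6.98 in smoke. The differences of these 4 genes ran from 0.39 to 0.51, and each, less the median of genes of like level, lay within 1 robust SD of them. With the offset the difference of Gjb2 was 0.29. Gja6, a connexin known from testis, was at 6.21 in air and 5.68 in smoke. Gja5, a connexin of arterial endothelium, was at 4.73 in air and 4.38 in smoke. The lower Gja5 signal stands beside the endothelial markers given above, whose part in it was not tested. The 6 connexins above the filter had a median of 0.415.

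The 9 connexins below the filter on both arrays had signals from 2.21 to 4.48. Of these, 7 were lower in smoke, beside 5311 of all 9070 genes below the filter. Gjc1, a connexin of smooth muscle and heart, was at 4.48 in air and 3.78 in smoke. Gjb5, a beta connexin, was at 3.68 in air and 2.94 in smoke, the largest difference of the 9 at -0.74, or -0.28 with the offset. Gja4, a second endothelial connexin, was at 4.31 in air and 3.81 in smoke.

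Gjb2 and Gjb6 are neighbours in the genome together with Gja3, which was below the filter at 2.24 in air and 2.60 in smoke. Among 15 runs of neighbouring genes of these families, that run alone had 2 members above the filter, and both were higher by a similar amount, 0.44 and 0.51. Their RefSeq promoter windows are therefore shown, Gjb2 at chr14:57104703-57104952 and Gjb6 at chr14:57133612-57133861, both on the minus strand of GRCm38.p6. Capitals mark the GC box GGGCGG, the E-box CAGGTG and the grainyhead-like pattern AACNGGTT, named after transcription factors of epithelial junction genes.
Gjb2: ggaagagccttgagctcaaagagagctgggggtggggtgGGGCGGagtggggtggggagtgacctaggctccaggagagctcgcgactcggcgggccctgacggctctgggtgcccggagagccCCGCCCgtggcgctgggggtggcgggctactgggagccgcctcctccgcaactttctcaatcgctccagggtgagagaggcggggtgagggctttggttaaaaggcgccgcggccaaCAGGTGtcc
Gjb6: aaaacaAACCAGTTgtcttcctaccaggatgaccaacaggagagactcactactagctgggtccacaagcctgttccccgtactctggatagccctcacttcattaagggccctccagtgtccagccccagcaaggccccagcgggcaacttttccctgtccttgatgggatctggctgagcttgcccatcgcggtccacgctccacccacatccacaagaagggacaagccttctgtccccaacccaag
The Gjb2 window holds GC boxes that begin 211 and 126 bases before the start and an E-box 9 bases before it. The Gjb6 window holds neither, and has the grainyhead-like pattern 244 bases before the start. No letter pattern searched was shared by the pair.

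Promoter windows were found for 57 of the 88 members, 21 of them above the filter with 31 windows between them. Some genes have several starts, so windows of a gene are not independent. A GC box was present in 18 of these 31 windows (58.1%) and in 12 of 43 windows of members below the filter (27.9%), beside 32.7% of all 32851 windows. The E-box was present in 29.0%, 18.6% and 17.2% of the same sets, the TATA box TATAAA in 3.23%, 11.6% and 12.4%, and the grainyhead-like pattern in 3.23%, 0 and 1.79%. GC boxes move with base composition: the median GC content was 58.8% for members above the filter, 51.6% for those below it and 52.4% for all windows. Members above the filter with an E-box window were Cldn7, F11r, Gjb1, Gjb2, Ocln and Tjp3, which were higher in smoke. Epcam and Pkp4 had such a window too and were lower. All of these but F11r lay within 1 robust SD of genes of like level. Whether the pattern goes with the direction was not tested.

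**Figure D3:**
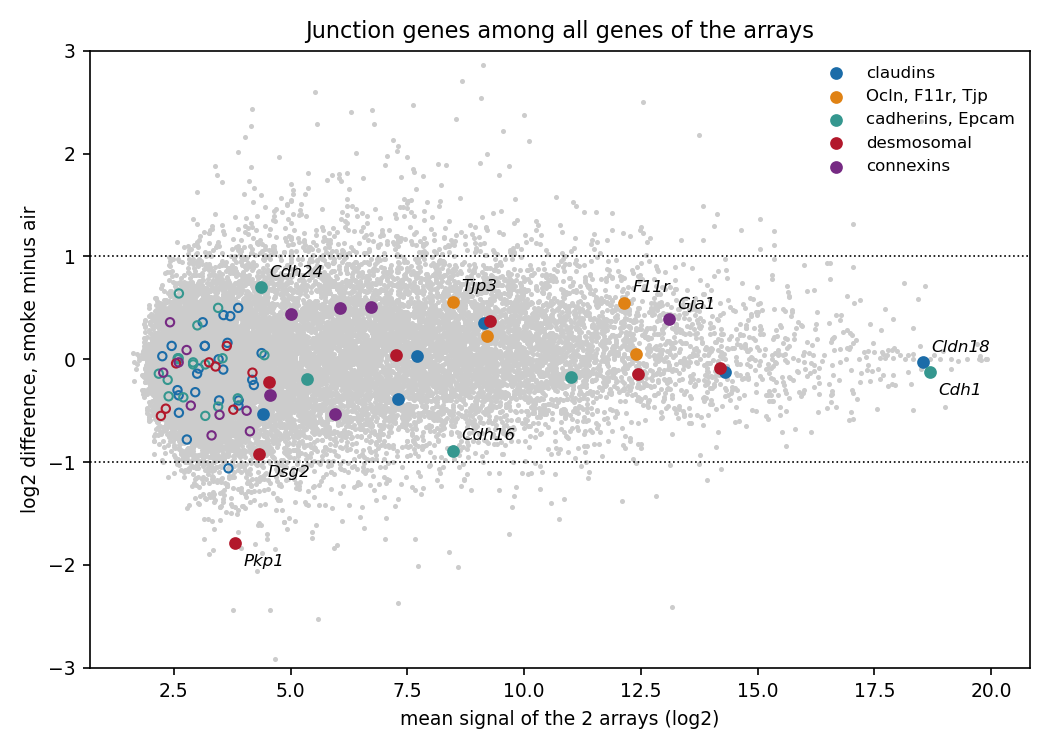
Log2 difference, smoke minus air (y axis), against the mean log2 signal of the 2 arrays (x axis) for all genes not at the upper limit (grey), with the 88 junction genes in colour, filled above the level filter and open below it; dotted lines mark 2-fold, and 11 genes fall outside the plotted range. The junction genes lie within the grey cloud at their own level, apart from Pkp1 at its lower edge.

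Set against genes of like level, the members' spread was near that of all genes. Of the 28 above the filter, 7 were more than 1 robust SD from the median of their 200 neighbours in level, beside 34.4% of all genes above the filter. The 7 were Pkp1, Cdh16, Dsg2, Gja6, Cldn34c1, F11r and Cdh24. Beyond 2 robust SDs there were 2 members (7.14%), Pkp1 and Cdh16, beside 7.87% of all genes. The median size of the difference, without its sign, was 0.36 for the 28 members and 0.33 for all genes above the filter.

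Genes that work with the members were taken from a list of 70 partners, of which 67 were in the table and 50 above the filter. None of the 50 passed 2-fold, 25 were higher and 25 lower, and their median was 0.03. Of the catenins, which bind cadherins inside the cell, 3 were above the filter and close to equal. Ctnna1 was at 14.20 in air and 13.94 in smoke, Ctnnd1 at 10.24 and 10.44, and Ctnnd2 at 7.43 and 7.52. Ctnnb1, the gene of beta-catenin and also on the list, was not found among the named genes, so nothing can be said of it. Of the nectins, adhesion molecules of adherens junctions, Nectin2 had 13.69 in air and 14.27 in smoke and Nectin4 at 5.77 and 6.40. Periplakin (Ppl), which links plaques to keratin, was at 8.74 in air and 9.40 in smoke. In the polarity list Crb3, an apical determinant of epithelial cells, was at 9.31 in air and 10.03 in smoke, differing by 0.72, the largest on the higher side.

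Of 14 partners of tight junctions above the filter, 9 were lower and 5 higher, beside 4660 lower of all 10419 genes above the filter. Their median was -0.285, beside 0.06 for all those genes. Corners where several cells meet are sealed by tricellulin (Marveld2) and the angulins Lsr and Ildr1. Marveld2 was at 8.81 in air and 8.08 in smoke, Lsr at 8.90 and 8.05, and Ildr1 at 9.20 and 8.80. Ildr2, a further angulin, was below the filter at 2.11 in air and 2.47 in smoke. None of these corner genes passed 2-fold. Cgn, which encodes the plaque protein cingulin, was at 8.59 in air and 7.95 in smoke, but its relative Cgnl1 was at 10.63 and 11.27. Amotl2, an angiomotin that binds the tight junction and also acts in endothelium, was at 11.59 in air and 10.73 in smoke, the largest difference of the partners at -0.86.

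Transcription factors of junction genes differed by no more than 0.52 above the filter. Grhl2, a grainyhead-like activator of Cdh1 and claudins, was at 9.72 in air and 9.89 in smoke. The repressors Snai2 and Zeb1 were at 5.63 and 8.72 in air and at 5.11 and 8.37 in smoke. Zeb2, also on the list, was not found among the named genes. Splicing regulators of epithelium in the same list, Esrp1 and Esrp2, were at 9.08 and 12.95 in air and at 8.97 and 13.10 in smoke.

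**Figure D4:**
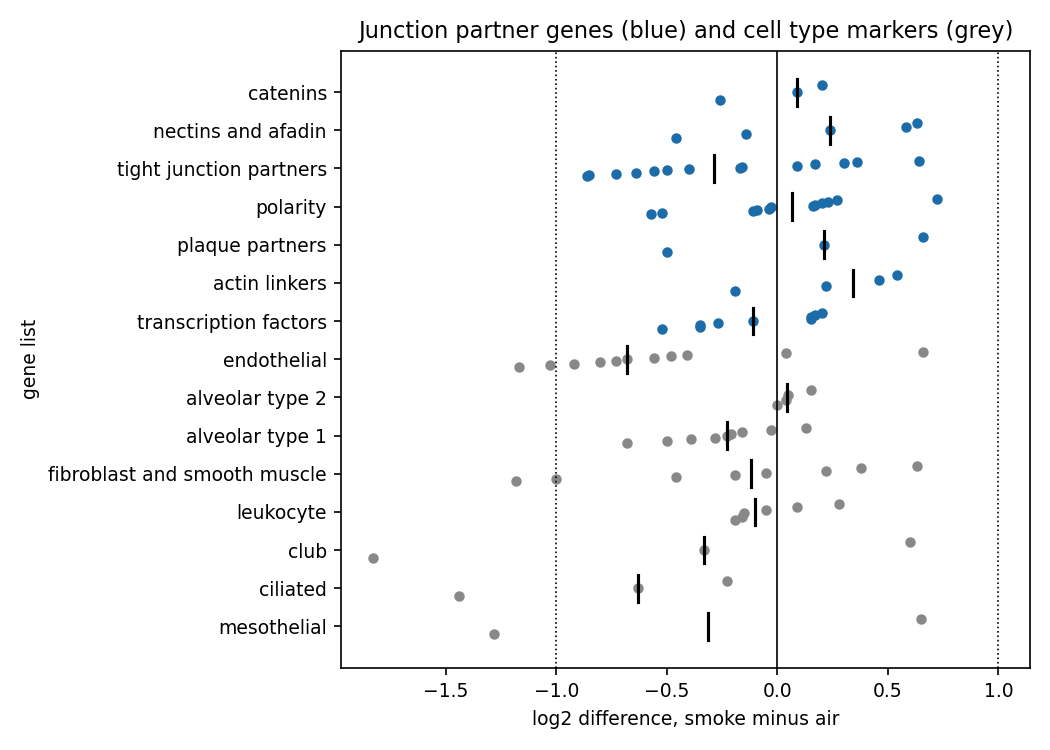
Log2 difference, smoke minus air (x axis), of genes above the level filter in the lists of junction partners (blue) and cell type markers (grey), 1 row per list (y axis), with a black bar at each median and dotted lines at 2-fold. All partner genes lie between -0.86 and 0.72, and 9 of 11 endothelial markers lie below 0.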

How the data were processed

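Total RNA of 1 air and 1 smoke sample was hybridised to Clariom S Mouse arrays, per the labels. The authors deposited 1 value per probe set, read as log2 signal from the range of the values, since no label states the scale; per the submitters' processing notes they used Transcriptome Analysis Console. Its version and its normalization, like the genome build, were not given in the sources used here. Medians were 4.61 in air and 4.53 in smoke. The number of arrays limits the precision. The platform annotation gave 1 gene symbol for 19572 of the 22206 probes and several for 0, leaving 2634 unnamed here; all 19572 matched RefSeq by Entrez number. Probes of a gene were averaged. Counts leave out 16 genes that reached the upper limit of the scale in air and in smoke. Differences, spread and calls were computed in Python 3.11.15 with pandas 2.3.3 and tested on simulated data. The members, lists and alternatives were chosen with earlier results of these data known. Every member above the filter could be named, and of those below it the brightest and the most different per class; Cldn1, Cldn2, Cdh2, Cdh3, Dsc2, Gja3, Gja4 and partner genes that did not have the largest difference of their list or a fixed place were named after their values were seen. Alternatives comprised other filters, thresholds, normalizations and an offset of 16.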

Additional observations from a re-analysis of the deposited data

How the results depend on the processing

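With 1 array per group, no setting gives a test. No paired analysis was possible because each group has 1 sample. The 1 lower member, Pkp1, was not counted with a filter at the 75th percentile of probe values, a filter on the mean of both arrays or an offset of 16 (0 members lower each, and Pkp1 at -0.84 with the offset). Lower members numbered 2 with no filter (Pkp1, Cldn34b4) and 2 after centring by level (Pkp1, Cdh16). At 1.5-fold 1 member was higher and 3 lower, and 4 partner genes were higher and 4 lower. Counts over all genes were 410 higher and 258 lower; they were 407 lower with no filter, 212 and 74 at the 75th percentile, 243 and 102 with the offset, 1514 and 958 at 1.5-fold and 66 and 35 at 3-fold. Members with a positive difference numbered 13, but 33 of 88 with no filter and 8 of 15 at the 75th percentile. With no filter the medians of cadherins with Epcam and of connexins were -0.05 and -0.13; the desmosomal median was -0.02 with the filter on the mean; and the median of Ocln, F11r and the Tjp genes was 0.26 after quantile normalization and 0.28 after centring by level. Of the 28 members above the filter, 3 changed sign under quantile normalization or centring by level (Cldn12, Pkp2, Tjp1), each within 0.09 of 0. Signals near the filter limit what can be read for Pkp1, Dsg2, Cldn15, Cdh24, Gja5 and Pkp3.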

Other observations

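The Cldn34 genes, a rodent claudin family, mostly had lower signals in smoke: 7 of 9 were lower, with a median log2 difference of -0.32, beside -0.02 for all genes. Of the 9, 8 were below the level filter on both arrays, where the median over all genes was -0.08, and the family holds near-identical copies that probes do not always separate.

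The run of neighbouring genes that holds Cdh2, the desmocollins and the desmogleins has 10 members, of which only Dsg2 was above the filter. Their differences ran from -0.92 for Dsg2 to 0.13 for Dsc3.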
